A study of Mus musculus with 200 samples.

Results

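The glutathione peroxidases Gpx1, Gpx3, Gpx4, Gpx7 and Gpx8 and the peroxiredoxins Prdx1, Prdx2, Prdx3, Prdx4 and Prdx6 were measured in single mouse embryos, as 10 of the 22033 genes in the expression tables. The 10 genes were picked by symbol with measured values of these samples already known, among them the level in backcross embryos by mother. Values by mother are therefore a description of how the genes were chosen, and no test between mothers was made on them. Of the 10 genes, 9 had a mean of at least 5 RPM, reads scaled to a common library total, in the backcross embryos, as did 10007 of all genes, and Gpx4 lay below that level.

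Libraries came from whole embryos at E11.5, cleared of extra-embryonic material, and were made by 3SEQ, which sequences the 3′ ends of polyadenylated RNA. F1 embryos came from reciprocal crosses of the inbred strains C57BL/6J (B6) and CAST/EiJ (Cast), with 8 embryos of 2 litters from B6 mothers and Cast fathers (B6xCast) and 8 embryos of 2 litters from Cast mothers and B6 fathers (CastxB6). N2 embryos were backcrosses to B6, with 89 genotyped embryos of 17 litters from B6 mothers and F1 fathers and 65 of 12 litters from F1 mothers and B6 fathers. The F1 parents were born to B6 females and Cast males, so every N2 embryo was either B6/B6 or B6/Cast at an autosomal gene. F1 embryos were B6/Cast at every autosomal gene. No embryo received a treatment, and none was homozygous for Cast.

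Glutathione peroxidases reduce hydrogen peroxide and lipid hydroperoxides with electrons from glutathione, and Gpx1, Gpx3 and Gpx4 carry selenocysteine in the active site. Peroxiredoxins use a reactive cysteine for the same task, and most are recharged by thioredoxin, whereas Prdx6 draws on glutathione. Red blood cells are rich in Gpx1 and Prdx2, and Gpx3 is the secreted form found in plasma.

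F1 libraries held 15703888 to 38234229 reads and N2 libraries 245220 to 5370322, with a median of 2297774 in N2, so allele fractions of single N2 embryos rest on far fewer reads than those of F1 embryos. N2 libraries were spread over 14 lanes, of which 9 held embryos of B6 mothers and 6 embryos of F1 mothers, and lane M alone held both kinds, with 1 embryo born to B6 and 8 born to F1 females. Lanes fell into sets by the levels of the genes other than the 10, namely lanes A, B, C, H and I, lanes D to G, lane J, and lanes K to N. Spearman's rho between lane means over 9998 genes was 0.962 to 0.992 within a set and 0.669 to 0.956 across sets. These sets were defined from the data after they were seen and are not groups of the study. Markers of embryo tissues were present, with 9 of 10 at 5 RPM or more, while of 15 decidua and trophoblast markers 14 had means below 1 RPM and 7 were at 0 in every N2 embryo, and the list summed to 0 to 24.7 RPM per embryo of B6 mothers and 0 to 6.48 RPM per embryo of F1 mothers.

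In the mm9 genome, Gpx1 lies at chr9:108241607-108242671, Gpx3 at chr11:54715955-54723879, Gpx4 at chr10:79509911-79519184, Gpx7 at chr4:108072995-108079566 and Gpx8 at chr13:113832971-113836596. Prdx1 lies at chr4:116358149-116373427, Prdx2 at chr8:87493486-87498733, Prdx3 at chr19:60939954-60950459, Prdx4 at chrX:151758461-151775297 and Prdx6 at chr1:163170243-163181350. Reads with a near-equal second placement were discarded upstream, so windows of 76 bases from the last 500 bases of each transcript were searched against the genome with up to 3 edits. For Gpx4, 100% of the windows had another match, and for Prdx1 56% did, with a range of 0 to 77.6% between its transcripts. Prdx2 had 13.4%, with a range of 0 to 50.6% between its transcripts, Prdx4 6.47%, Prdx6 1.76%, and the other members had none. For Gpx3 the search found the gene itself for only 48.2% of the windows in its least covered transcript, so its value of none is incomplete. The copies make the levels of Gpx4 and Prdx1, and in part that of Prdx2, uncertain. Gpx8 overlaps Cdc20b and Prdx2 overlaps Rnaseh2a on the opposite strand.

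The antioxidant response element is the site through which Nfe2l2 acts on peroxide-defence genes, and its core, TGACNNNGC, was searched on both strands of the 250 bases before each RefSeq transcript start (GRCm38.p6). Of the 10 genes, 9 were matched to a promoter entry, Prdx6 not among them, and of these only Prdx1 held the motif, which was present in 3338 of 32851 windows of that length (10.2%). The window of Prdx1, a transcript that varied widely between libraries, and that of Gpx3, the member with the allelic difference described later, are shown, both on the plus strand, with the motif match in capitals. The match in Prdx1 lay on the minus strand, 133 bases before the start, and a match in letters does not show that a factor binds there.
Prdx1, chr4:116685349-116685598: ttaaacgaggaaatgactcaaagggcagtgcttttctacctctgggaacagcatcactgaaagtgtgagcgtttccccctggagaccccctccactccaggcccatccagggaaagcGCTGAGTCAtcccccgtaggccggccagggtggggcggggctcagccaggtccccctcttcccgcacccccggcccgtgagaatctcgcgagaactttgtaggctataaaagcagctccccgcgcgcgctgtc
Gpx3, chr11:54902604-54902853: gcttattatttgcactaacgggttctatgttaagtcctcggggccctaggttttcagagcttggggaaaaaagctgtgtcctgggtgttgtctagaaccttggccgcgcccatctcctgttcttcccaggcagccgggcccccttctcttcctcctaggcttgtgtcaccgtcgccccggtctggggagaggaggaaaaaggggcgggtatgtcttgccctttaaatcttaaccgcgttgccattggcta

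The members differed in how much of their variance over the 154 N2 embryos lay between lanes. The largest lane shares of the variance of log2(RPM + 1) were 86.4% for Gpx8 and 84.8% for Prdx3, and the smallest was 24.4% for Gpx4, against a median of 57.9% over all genes. Mother took 29.6% for Gpx3, 19.5% for Prdx4, 12.4% for Prdx6 and 11.5% for Prdx2, and 3.33% or less for the other members, against a median of 1.19%. Since nearly every lane held embryos of a single kind of mother, the lane share contains the mother share by design, and the 2 are not compared.

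Among the glutathione peroxidases, the cytosolic enzyme Gpx1 averaged 854 ± 303 RPM (SD, n = 154) in N2 and 914 ± 235 RPM (n = 16) in F1 embryos. Its lowest N2 values were in lane J, where embryos of B6 mothers averaged 344 RPM against 885 RPM in lanes A, B, C, H and I. Secreted Gpx3 averaged 263 ± 88.7 RPM in N2, from 104 through a median of 255 to 551 RPM, and 218 ± 39.1 RPM in F1. Gpx3 was lowest in lanes D to G whichever the mother. Gpx4, which reduces lipid hydroperoxides in membranes and whose 3′ windows all matched elsewhere in the genome, averaged 2.03 ± 1.68 RPM in N2 and had no read in 15 of the 154 embryos.

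The endoplasmic reticulum members Gpx7 and Gpx8 differed in how they followed the lanes. Gpx7 averaged 148 ± 52.9 RPM in N2 and 180 ± 26 RPM in F1, and its lane J embryos averaged 34 RPM, the lowest of any lane. Gpx8 averaged 57.7 ± 86.9 RPM in N2 with a median of only 9.66 RPM, since embryos of B6 mothers averaged 4.34 RPM in lanes A, B, C, H and I, 12.6 RPM in D to G, 31.0 RPM in J and 180 RPM in K to N. Embryos of F1 mothers gave the same order of lanes for Gpx8, at 2.99, 13.9 and 163 RPM, with none in lane J, and F1 embryos averaged 15.1 ± 20.8 RPM.

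Among the peroxiredoxins, the mitochondrial enzyme Prdx3 resembled Gpx8. Its mean was 25.4 ± 42.6 RPM against a median of 3.20 RPM, and embryos of B6 mothers averaged 2.24 RPM in lanes A, B, C, H and I but 70.7 RPM in K to N, while F1 embryos averaged 6.70 ± 4.62 RPM. Cytosolic Prdx2 averaged 662 ± 410 RPM in N2 and 537 ± 96.2 RPM in F1, and the same sets of lanes had 332 and 997 RPM with B6 mothers and 443 and 1064 RPM with F1 mothers. High values in lanes K to N were therefore shared by Gpx8, Prdx3 and Prdx2. The level of Prdx1, also cytosolic, was 81.9 ± 132 RPM with a median of 49.0 and a highest value of 1180 RPM, in lane J. Prdx4, the secretory-pathway peroxiredoxin, averaged 146 ± 135 RPM in N2 and 361 ± 106 RPM in F1, and was highest in lanes D to G, at 279 RPM with B6 mothers and 316 RPM with F1 mothers. Prdx6, at 268 ± 89.3 RPM in N2 and 294 ± 71.7 RPM in F1, was highest in the same lanes, at 321 and 365 RPM.

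**Figure D1:**
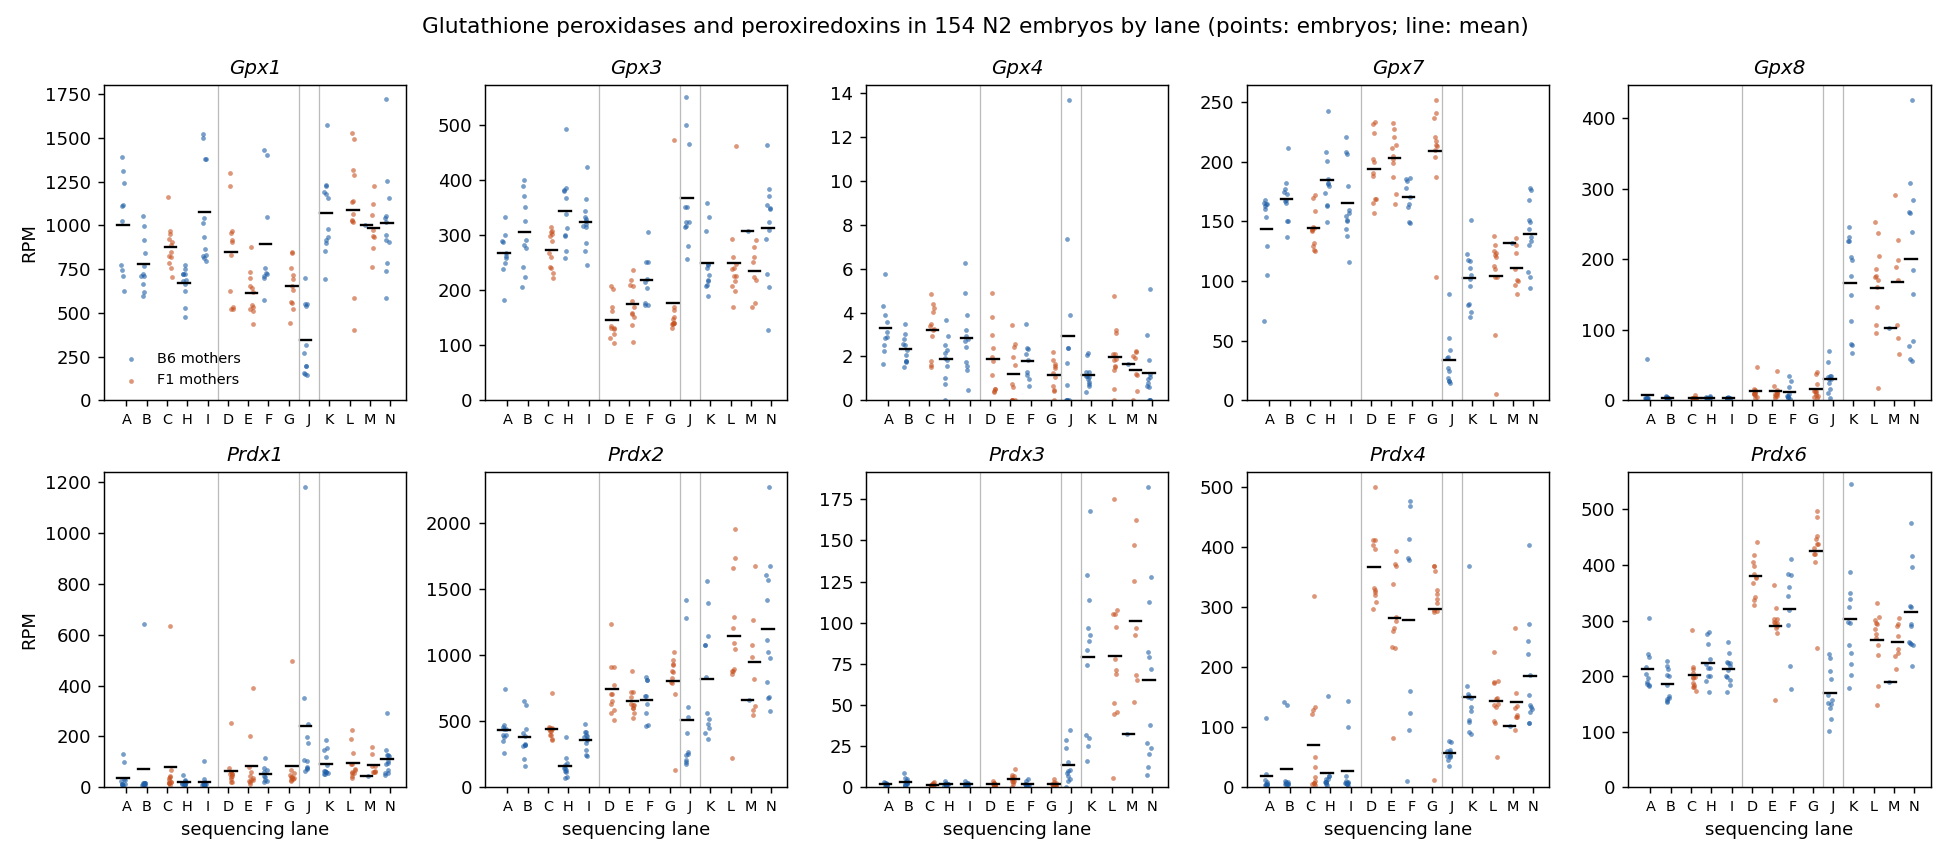
RPM of each of the 10 genes (linear axes from 0) in the 154 N2 embryos by sequencing lane, with a point for each embryo, blue for B6 mothers and orange for F1 mothers, a black line at the mean of a lane and mother, and grey lines between the sets of lanes. Gpx8 and Prdx3 stood high in lanes K to N, Prdx4 and Prdx6 in lanes D to G, and Gpx3 was low in lanes D to G for both mothers.

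Litters divided between lanes held the mother constant. Litter 13 of the B6 mothers averaged 2.98 RPM of Gpx8 in lane H (4 embryos) and 214 RPM in lane K (2 embryos). In the same litter, Gpx3 averaged 359 RPM in lane H and 223 RPM in lane K, and no Gpx3 value of lane K reached the lowest of lane H, 298 RPM. Litter 10 of the F1 mothers differed by lane for Gpx8, at 2.91 and 152 RPM in lanes C and L, but hardly for Gpx3, at 268 and 267 RPM. Other litters split between sets of lanes also differed in Gpx3. Litter 9 of the F1 mothers averaged 302 RPM in lane C (2 embryos) and 144 RPM in lane G (3 embryos), and litter 3 of the F1 mothers 125 RPM in lane D (5 embryos) and 198 RPM in lane L (2 embryos). Litter 3 of the B6 mothers averaged 339 RPM in lane I (6 embryos), 233 RPM in lane F (2 embryos) and 334 RPM in lane J (3 embryos). Gpx3 was thus lower in lanes D to G than in the other lanes of all 3 of these litters.

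By mother, the contrast known when the genes were picked, Gpx3 averaged 301 ± 77.9 RPM in embryos of B6 mothers (lowest 129, median 301, highest 551, n = 89) and 210 ± 74.4 RPM in those of F1 mothers (lowest 104, median 208, highest 474, n = 65). Embryos of both mothers overlapped over most of this range. Litter means were 310 ± 69.8 RPM (SD over 17 litters) and 220 ± 49.3 RPM (12 litters), and lane means 300 ± 46.7 RPM (9 lanes) and 209 ± 50.1 RPM (6 lanes). The ratio of 1.44 over all embryos became 1.14 in lanes A, B, C, H and I, 1.32 in D to G and 1.16 in K to N, and in lane M the only B6-mother embryo had 309 RPM and the 8 others averaged 235 RPM. Lane and mother cannot be told apart beyond these values.

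Prdx4 ran the other way, at 94.4 ± 114 RPM with B6 mothers and 217 ± 130 RPM with F1 mothers. It is X-linked, and F1 fathers passed on only a B6 X. The Cast copy was therefore coded in 0 of 89 embryos of B6 mothers and in 28 of 65 of F1 mothers. Mother and the embryo's own Prdx4 genotype were thus tied by design, and the part of that genotype was not tested. Prdx2 stood at 574 and 782 RPM, Prdx3 at 22.8 and 29.0 RPM, Prdx6 at 242 and 304 RPM and Gpx7 at 137 and 162 RPM. Gpx1 (862 and 843 RPM), Gpx4 (2.16 and 1.86 RPM), Gpx8 (57.8 and 57.6 RPM) and Prdx1 (81.5 and 82.3 RPM) had means nearer in ratio than these. By set of lanes the Prdx4 means with B6 and F1 mothers were 25.7 and 70.1 RPM in A, B, C, H and I, 279 and 316 RPM in D to G, and 165 and 143 RPM in K to N. Prdx2 was higher with F1 mothers in all 3 sets, whereas Prdx6 was higher with B6 mothers in A, B, C, H and I (209 and 202 RPM) and in K to N (304 and 264 RPM). Gpx7 likewise was higher with B6 mothers in those sets, at 166 and 144 RPM and at 121 and 107 RPM, so the direction over all embryos was not that within most sets of lanes. The erythroid marker sum was 82039 RPM with B6 mothers and 89181 RPM with F1 mothers, and the yolk sac and fetal liver sum 1090 and 1065 RPM. The part of these tissues in the values by mother was not tested, and in whole embryos fewer cells of a type and less RNA per cell cannot be told apart.

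Alleles were compared in heterozygous embryos through the B6 allele fraction (BAF), the share of allele-informative reads, here called votes, assigned to B6. Of the 6 autosomal members with enough votes, 1 passed the paired test of B6 against Cast votes over F1 and heterozygous N2 embryos with a BAF outside 0.45 to 0.55, against 19.1% of 9084 genes. That gene was Gpx3, with a BAF of 0.559 over 88 embryos (Bonferroni-adjusted p = 2.39e-13). The B6 allele was in excess in 16 of 16 F1 embryos, at 0.561 ± 0.0200, from 0.529 to 0.607 (exact two-sided sign-flip permutation p = 3.05e-05, the smallest that 16 embryos allow). Heterozygous N2 embryos gave 0.555 ± 0.0421, above 0.5 in 63 of 72. With F1 mothers the mean ran from 0.527 (5 embryos) in A, B, C, H and I to 0.586 (12) in K to N. With B6 mothers it was 0.553 to 0.565 outside lane J, where 3 embryos averaged 0.483. Gpx3 had 22.1 votes per 100 reads in F1 and 46.3 in N2. The part of lane and vote rate in its BAF was not tested. B6/B6 embryos had 2 Cast votes beside 13515 B6 votes with B6 mothers and 15 beside 6676 with F1 mothers. Genotypes had been called from the same allele-informative reads, so these low counts are no independent control.

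Gpx7 also leaned to B6, by less. Its BAF was 0.531 (Bonferroni-adjusted p = 0.00718, same test), inside the window of 0.45 to 0.55, so it was not called. In F1 embryos it was 0.536 ± 0.0261, above 0.5 in 14 of 16 (exact sign-flip permutation p = 0.000122). In N2 it moved with the lanes, from 0.576 ± 0.0542 (24 embryos of B6 mothers) in A, B, C, H and I to 0.486 ± 0.0338 (11 embryos) in K to N, and stood at 0.709 in the 2 embryos of lane J. Votes per 100 reads of Gpx7 moved too, from 36.0 to 80.4 between those 2 sets, and their part in the BAF was not tested.

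Prdx6 gave different fractions in the 2 generations. F1 embryos averaged 0.418 ± 0.0691, with 13 of 14 below 0.5 or at it (exact sign-flip permutation p = 0.000488), and heterozygous N2 embryos 0.517 ± 0.0915, above 0.5 in 30 of 52. The difference of −0.0994 (F1 minus N2) was larger than embryo-to-embryo spread allowed (permutation test with 100000 resamples, two-sided p = 0.00036, 1 of 3 genes compared), while Gpx3 differed by 0.00631 (p = 0.562) and Gpx7 by −0.00245 (p = 0.886). Prdx6 had 1.36 votes per 100 reads in F1 and 17.7 in N2, where reads were longer, and it was not called over all embryos (BAF 0.490, adjusted p = 1). Within N2 its vote rate also moved with the lanes. In heterozygous embryos it went from 4.27 in A, B, C, H and I to 48.1 in K to N with B6 mothers. With F1 mothers it went from 7.64 to 48.0 between those sets. Gpx8, Prdx1 and Prdx3 had BAF values of 0.458, 0.389 and 0.467 on few votes and were not called. Of 753.5 F1 votes of Prdx3, CastxB6 embryo 1-1 alone gave 235.5 for B6 and 230 for Cast. Gpx1, with 2 votes over all F1 embryos, and Gpx4 and Prdx2, with 0, could not be tested at all.

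**Figure D2:**
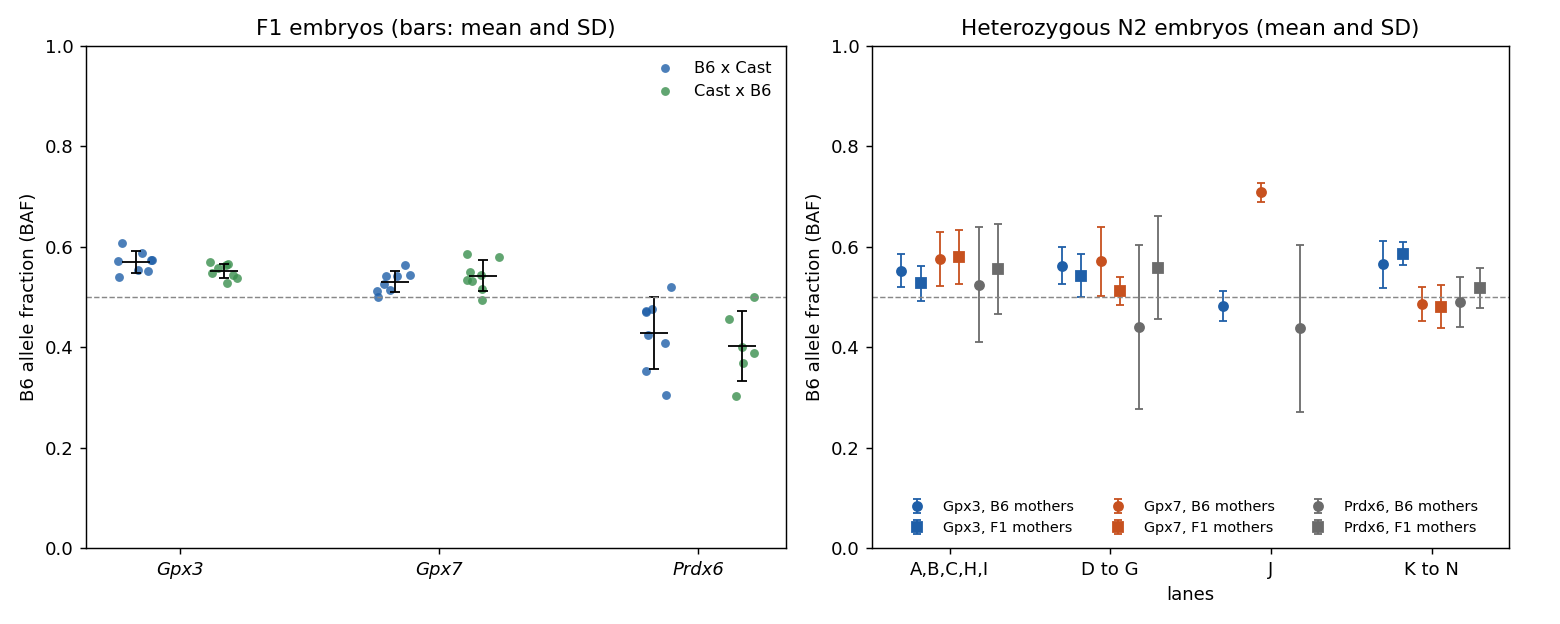
BAF (0 to 1, dashed line at 0.5) of Gpx3, Gpx7 and Prdx6, left in each F1 embryo by cross (points) with mean and SD, right as mean and SD over heterozygous N2 embryos by set of lanes and mother (circles, B6 mothers; squares, F1 mothers). Gpx3 lay above 0.5 in every F1 embryo, Prdx6 mostly below it in F1 embryos but not in N2, and Gpx7 was below 0.5 on average only in lanes K to N among the sets of lanes.

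No difference between the reciprocal crosses was detectable in these alleles. For Gpx3, BAF was 0.570 ± 0.0214 in B6xCast and 0.552 ± 0.0147 in CastxB6 embryos, a difference of 0.0179 (exact permutation p = 0.0702, adjusted p = 0.392), and for Gpx7 the difference was −0.0118 (exact permutation p = 0.382, adjusted p = 0.741). With 8 embryos per cross the smallest possible p was 0.000155, and 0 of 5628 genes passed an adjusted p of 0.01 in this exact permutation test (0%), of which 822 had an unadjusted p under 0.05. For any gene to pass, 88 genes would have had to reach the smallest p, so this 0 says little about single genes. The other autosomal members had too few votes.

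Prdx4 is X-linked, and its alleles followed the X chromosome in 15 of the 16 F1 embryos. Xist is the RNA that coats the inactive X. In B6xCast, the 4 embryos with Xist below 0.4 RPM had Prdx4 BAF values of 0.998 or more, and the 4 with Xist from 133 to 288 RPM had 0.247 to 0.354, near the medians of 34 other X-linked genes in the same embryos, 0.252 to 0.352. In CastxB6, 5 embryos with Xist below 0.4 RPM had BAF of at most 0.00053, and embryos 1-2 and 2-3 had 0.239 and 0.264. Embryo 1-3 stood apart, with a BAF of 0.0109 where the X-linked median was 0.333, with 70.1 RPM of Prdx4 against 290 to 552 RPM in the other CastxB6 embryos, and with 49.2 RPM of Xist.

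In N2 embryos with at least 20 Prdx4 votes, 33 of 34 from B6 mothers had a BAF above 0.99 and the remaining embryo had 0.986. Of 54 from F1 mothers, 28 were above 0.99, 13 below 0.01 and 13 between, with a median of 0.246 among the last. Those between included embryos 2-9 (BAF 0.0137), 12-10 (0.98) and 11-8 (0.99), whose Xist was at most 0.581 RPM. The 13 are therefore not a count of embryos with both copies expressed. Where both alleles were read, the Cast copy of Prdx4 was thus mostly the larger share in both generations, as for the other X-linked genes in F1.

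**Figure D3:**
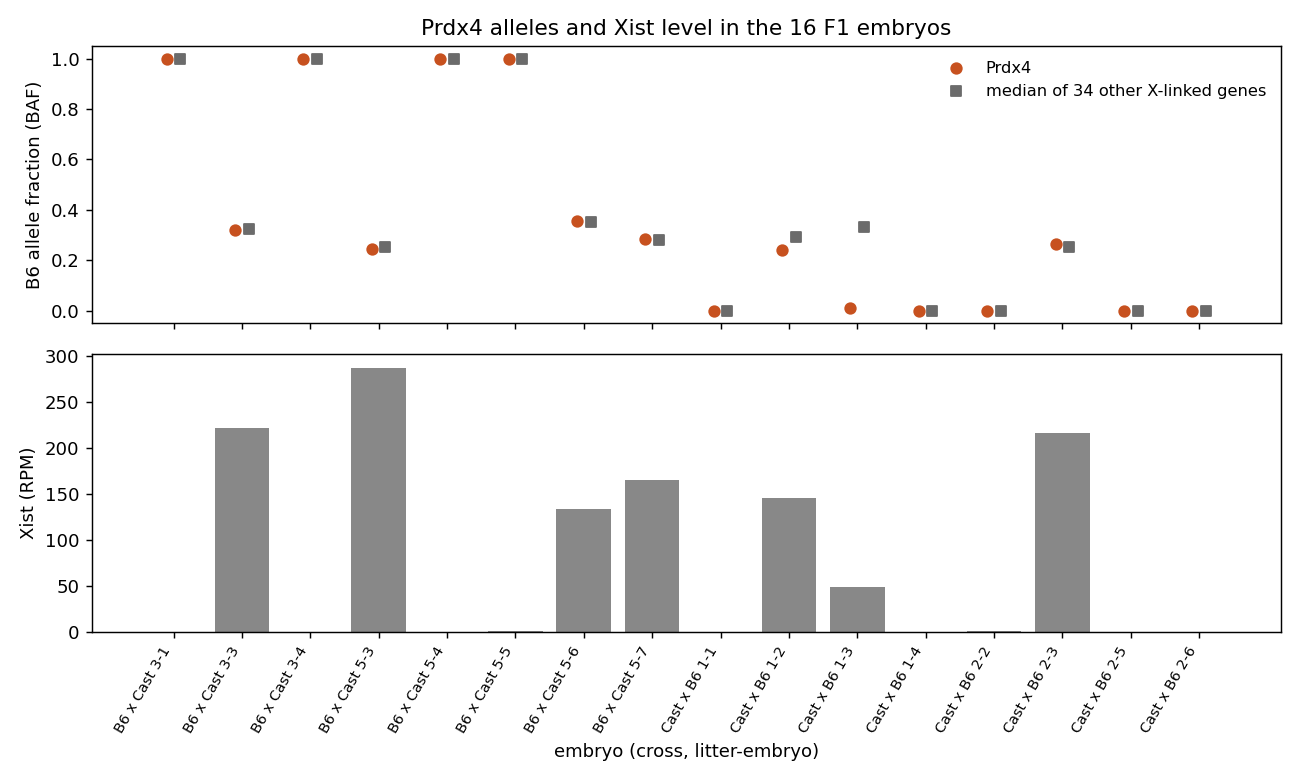
Top, BAF of Prdx4 (orange circles) and the median BAF of 34 other X-linked genes (grey squares) in each F1 embryo. Bottom, bars from 0 give Xist RPM in the same embryos, and embryo 1-3 of CastxB6 shows Prdx4 at 0.0109 beside an X-linked median of 0.333.

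Whether an embryo's own genotype at a gene went with its level was asked in N2, after lane, Xist, somite number and 15 principal components were fitted. Of 8 members tested, 1 passed an adjusted p of 0.01, against 29.1% of 9733 genes. Gpx3 was lower in 72 heterozygous than in 82 B6/B6 embryos, by −0.15 on the log2(RPM + 1) scale (rank-sum test, Benjamini-Hochberg adjusted p = 1.14e-06). For a plain sum of 2 copies, a BAF of 0.559 corresponds to −0.16. The part of the alleles in the genotype difference was not tested. Without the principal components the difference was −0.11 (adjusted p = 0.025) and 0 of 8 members passed (19.4% of genes), and with litter in place of lane it was −0.13 (adjusted p = 0.00768). Gpx8 came next, 0.18 higher in heterozygous embryos (adjusted p = 0.0307), and the other 6 had adjusted p-values of 0.556 or more.

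Raw levels of Gpx3 with B6 mothers were 326 ± 79.7 RPM in 49 B6/B6 and 271 ± 64.8 RPM in 40 heterozygous embryos. With F1 mothers the means were 206 ± 65.7 RPM in 33 and 214 ± 83.4 RPM in 32 embryos. Within sets of lanes, heterozygous embryos of F1 mothers averaged less than B6/B6 embryos in A, B, C, H and I (262 and 283 RPM) and in K to N (239 and 250 RPM), and more only in D to G (178 ± 88.6 RPM, n = 15, and 157 ± 33.6 RPM, n = 18). With B6 mothers they averaged less in all 4 sets. With lane and no principal components, the fitted genotype difference was −0.17 on the log2 scale with B6 mothers and −0.02 with F1 mothers. With the components, the difference between mothers in the genotype effect was 0.03 ± 0.07 (SE, linear model interaction, p = 0.62, adjusted p = 0.974). Without them it was 0.17 ± 0.10 (same test, p = 0.108), and 0.23 ± 0.11 with litter in place of lane (p = 0.0345, adjusted p = 1). Of the 8 members, 0 passed this interaction test (0.257% of genes), and Prdx3 (p = 0.0223) and Prdx2 (p = 0.0478) had unadjusted p-values under 0.05.

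Somite number, the count of body segments that stages an embryo, was known for 147 N2 embryos and ran from 42 to 57. Of the 9 members, 3 passed Spearman's test, all with lower RPM at higher somite number, against 21.9% of 10040 genes. Prdx6 had the largest coefficient, with rho = −0.34 (Benjamini-Hochberg adjusted p = 0.000503, permutation p = 3e-05) and r = −0.30 (permutation p = 0.00033), and −0.25 after leaving out the 2 embryos whose somite number lay farthest out. It averaged 303 ± 79.7 RPM in 39 embryos of at most 46 somites and 243 ± 94.4 RPM in 48 of at least 51. Prdx4 had rho = −0.23 (adjusted p = 0.0258) and r = −0.26, and Prdx1 rho = −0.22 (adjusted p = 0.0363) with r = −0.05 (permutation p = 0.579). Gpx3 had rho = −0.07 (adjusted p = 0.575) and r = −0.10.

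Lanes changed this picture, since somite numbers differed between them. With lane regressed out of the ranks, again 3 of 9 members passed (11.5% of genes), now Gpx3 (rho = −0.40, adjusted p = 8.9e-05), Gpx1 (0.28, adjusted p = 0.0163) and Prdx6 (−0.26, adjusted p = 0.025). Prdx4 turned to 0.05 and Prdx1 was −0.20 (adjusted p = 0.122). Gpx3 was negative within each set of lanes, at −0.48 in A, B, C, H and I (50 embryos), −0.43 in D to G (42), −0.54 in J (11) and −0.41 in K to N (44), with adjusted p-values under 0.05 in the first 2 of these sets. Prdx6 was not, at −0.44, 0.45, 0.10 and −0.51 in the same order, of which all but lane J passed. With litter regressed out, Gpx3 alone passed (rho = −0.32, adjusted p = 0.0303, 1.93% of genes), and Prdx6 stood at −0.17 (adjusted p = 0.35).

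Slopes with lane in the model did not differ detectably between mothers for any of the 9 members (limma interaction, 0 of 9 passed, 0.00996% of genes). For Gpx3 the slope was −0.05 log2 CPM per somite with B6 mothers and −0.07 with F1 mothers, a difference of −0.01 ± 0.03 (SE, adjusted p = 0.934). Prdx6 had the smallest unadjusted p, 0.162.

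Between the F1 crosses, 2 of 10 members passed edgeR's quasi-likelihood test on counts, against 25.9% of 14625 genes. Gpx4 had 1.52, 2.83 and 4.48 RPM (lowest, median, highest of 8) in B6xCast and 3.08, 5.58 and 6.67 RPM in CastxB6 embryos. These overlapping ranges gave a log2 difference of 0.86 ± 0.21 (SE, edgeR adjusted p = 0.00799). Prdx1 had 9.40, 14.4 and 31.7 RPM in B6xCast and 17.5, 24.1 and 402 RPM in CastxB6, a log2 difference of 2.29 ± 0.67 (edgeR adjusted p = 0.0184). Embryo 1-1 carried much of the size of that difference, which was 0.81 without it (edgeR adjusted p = 0.0641).

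Each cross was 2 litters, and the litters differed in stage. B6xCast litters had 58 to 63 and 48 to 50 somites, and CastxB6 litters 41 to 43 and 46 to 48. Cross and litter cannot be fully told apart. CastxB6 litter 2 was also sequenced in a different pair of runs from the other litters, so run and litter cannot be told apart there. With litter as a random block in limma voom, 0 of 10 members passed, Gpx4 at an adjusted p of 0.256 and Prdx1 at 0.593. The Gpx4 call was lost without B6xCast litter 5 (edgeR adjusted p = 0.164) or CastxB6 litter 1 (0.0619), and the Prdx1 call without B6xCast litter 3 (0.0646) or 5 (0.242).

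Gpx3 showed how litters could differ within a cross. It averaged 153 ± 23.9 RPM (n = 3) in B6xCast litter 3, the litter with the most somites, 248 ± 27.6 RPM (n = 5) in litter 5, and 222 ± 6.92 and 224 ± 19.3 RPM (n = 4 each) in the CastxB6 litters. Its log2 difference between crosses was 0.11 (edgeR adjusted p = 0.624), which became 0.72 (adjusted p = 0.00132) without B6xCast litter 5. Gpx1 had a log2 difference of −0.43, lower with Cast mothers (edgeR adjusted p = 0.0508), with CastxB6 litter 2 lowest, at 604 ± 72.0 RPM. Prdx3 had one of 0.90 (edgeR adjusted p = 0.0539), with medians of 4.91 RPM in B6xCast and 6.77 RPM in CastxB6. Its highest value, 21.1 RPM, was again in CastxB6 embryo 1-1.

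**Figure D4:**
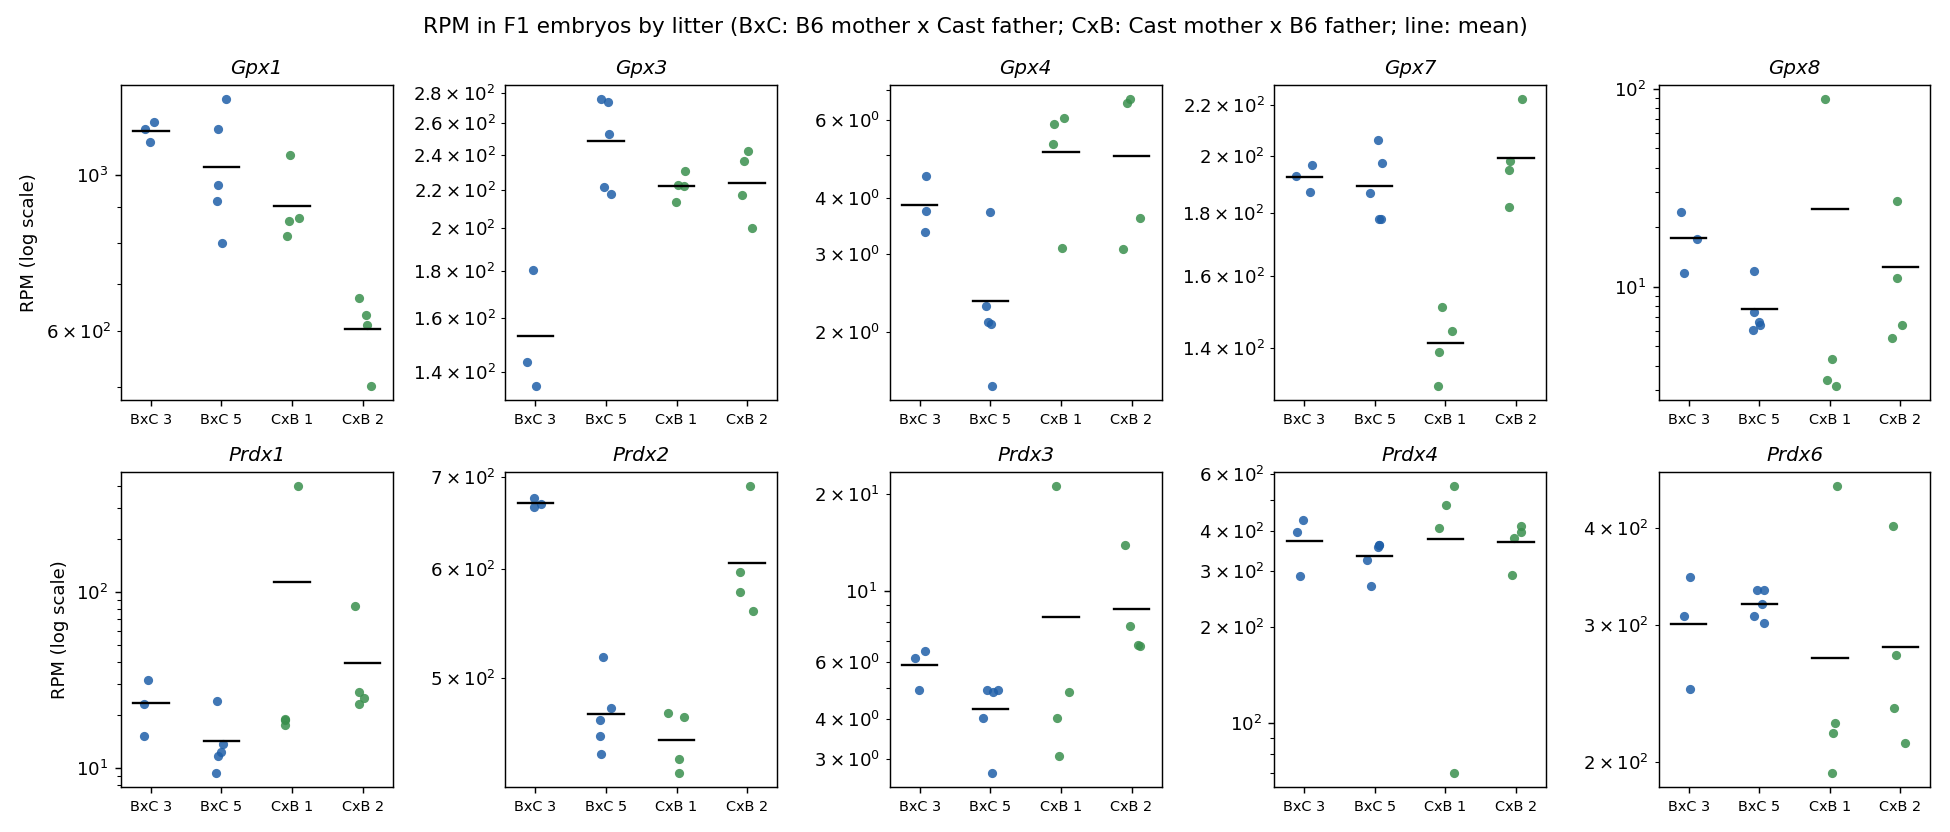
RPM (log scale) of the 10 genes in each F1 embryo by litter, with points for embryos and a line at each litter's mean, B6xCast litters (BxC) in blue and CastxB6 litters (CxB) in green. Gpx3 differed between the 2 B6xCast litters (153 and 248 RPM), and Prdx1 in the first CastxB6 litter rested on 1 embryo at 402 RPM.

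The 9 members above 5 RPM varied together only in part. Over their 36 pairs, the median Spearman's rho across the 154 N2 embryos was 0.162, and 0.0904 once lane was regressed out, when the pairs above 0.4 went from 11 to 2. Prdx4 with Prdx6 went from 0.75 to 0.43 and Gpx8 with Prdx2 from 0.73 to 0.49, while Gpx8 with Prdx3 went from 0.75 to 0.28. Gpx3 and Prdx4 ran against each other, at −0.63 and −0.28. These embryos share lanes and litters, and the coefficients are descriptions.

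The genes most like Gpx3 after lane was removed were Wnt7b (rho = 0.67), Usp5 (0.67), Fbxw8 (0.66), Klhdc3 (0.64) and Aarsd1 (0.64), over 154 embryos. Gpx1 was most like Kel (0.75), Fech (0.69) and Rhd (0.69), of which Kel and Rhd encode blood group antigens of red cells and Fech the last enzyme of haem synthesis. The next genes on the list for Gpx1 were Lancl1 (0.67) and Gsn (0.67). With the summed erythroid markers, Gpx1 had rho = −0.00082 over all embryos and 0.38 with lane removed, whereas Prdx2 had −0.33 and −0.31. With the yolk sac and fetal liver markers and lane removed, Gpx1 had 0.58, Gpx3 −0.43 and Prdx2 −0.03.

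Other genes of the peroxide-defence system were taken from lists of 37 glutathione and thioredoxin genes and 21 selenium genes. In the first list, 24 were tested against somite number (21.9% of all genes were called), of which Keap1, the sensor that restrains Nfe2l2 (rho = 0.38), and Gss, a glutathione synthesis enzyme (0.27), rose with it and Txnrd3, a thioredoxin reductase (−0.25), fell. With lane regressed out, 0 of the 24 passed in either direction. Among the 14 selenium genes tested, Selm (0.48) and Sepw1 (0.27) rose and Sephs2 (−0.23), which makes the selenium donor, and Lrp8 (−0.21), a receptor for selenoprotein P, fell, and Selm alone passed with lane regressed out (0.34, adjusted p = 0.00117). The median rho was −0.04 over the first list and −0.08 over the second, beside −0.02 over all genes tested.

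In the other genes that passed both tests, Msrb3, Gsr, Sepw1 and Selm, the allele in excess and the genotype with the higher level matched. Of 18 glutathione and thioredoxin genes tested for alleles, 3 favoured Cast and 0 favoured B6, beside 19.1% of all genes called in either direction. Msrb3, a methionine sulfoxide reductase, had a BAF of 0.142, the glutathione reductase Gsr 0.216 and the methionine sulfoxide reductase Msra 0.230. Heterozygous N2 embryos were higher by 1.12 for Msrb3 and 0.82 for Gsr on the log2 scale, with 4 higher and 2 lower among 24 tested (29.1% of all genes were called), the lower ones being the superoxide dismutase Sod1 (−0.45) and the thioredoxin reductase Txnrd1 (−0.14). Of the selenium genes, Sepw1 favoured B6 (BAF 0.654, −0.25 in heterozygous embryos) and Selm Cast (BAF 0.398, 0.20), among 12 tested for alleles. In F1 embryos, 6 of 33 glutathione and thioredoxin genes were higher with Cast mothers, among them catalase, Cat (log2 1.1), Nfe2l2 (0.92) and Txnrd1 (0.85), and 2 were lower, beside 25.9% of all genes called in either direction. For the selenium genes the numbers were 5 and 3 of 17. The median log2 difference was 0.20 over either list and 0.03 over all genes, the median BAF 0.493 and 0.476 beside 0.4995, and the median genotype difference 0.02 and 0.03 on the log2 scale beside 0.0025.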

How the data were processed

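The authors sequenced 3SEQ libraries of whole embryos, aligned reads with Bowtie2 to mm9 and to a Cast version of it, discarded reads with a near-equal second placement and counted reads over RefSeq exons. The deposited tables hold read counts per gene and embryo, and allele votes as estimated counts, some of them fractional. F1 libraries were sequenced in 2 runs that share 1 deposited column per embryo, with reads trimmed to one length. For CastxB6 litter 2 the runs were labelled hs1 and hs2, and for all other F1 litters gaIIx and hs1. N2 reads were longer and trimmed only of poly(A).

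RPM was computed from the deposited counts. Of 160 labelled N2 columns, 6 had no genotypes and were left out, and 8 unlabelled columns were not used. The 10 genes, the other lists and the markers were chosen with earlier results of these data known. All 10 genes are named, as are genes of other lists that passed a test, at most 3 per direction by p, and the 5 genes most like Gpx3 (and Gpx1, chosen after values were seen). Tests ran over all genes: Spearman's rho at 5 RPM or more, paired t-test on votes (at least 20), rank-sum test on residuals with 15 principal components, exact permutation, edgeR 4.0.16 quasi-likelihood with TMM, and limma 3.58.1 (R 4.3.3), with DESeq2 1.42.0 as an alternative. Adjusted p under 0.05 counted as a call, and under 0.01 for alleles and own genotype. Python 3.11.15, scipy 1.17.1 and BLAST+ 2.17.0+ were used. Embryos share litters, so p-values over embryos measure spread between embryos, not litters. Simulated data were used to check the tests of somite number, alleles, BAF by F1 cross, edgeR between F1 crosses and slopes by mother. The BAF comparison between generations, the outlier search, the sequence searches and the alternative F1 fits had no such check.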

Additional observations from a re-analysis of the deposited data

Results flagged for a closer look

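Over 29 groups of 8 or fewer F1 values tested for a sample far from the others, 3 groups held one, in 2 libraries, where chance gives about 5% of groups. In CastxB6 embryo 1-1, Gpx8 stood at 88.5 RPM with the next embryo at 27.2 RPM, and Prdx1 stood at 402 RPM with the next at 83.4 RPM. In B6xCast embryo 3-1, Prdx6 stood at 248 RPM with the next embryo at 302 RPM.

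The BAF of Prdx6 differed between generations, at −0.0994 for F1 minus heterozygous N2 embryos (permutation p = 0.00036), beside 1.36 and 17.7 votes per 100 reads. The N2 rate differed between sets of lanes, from 4.27 in A, B, C, H and I to 48.1 in K to N with B6 mothers. The part of the vote rate in the BAF difference was not tested.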

How the results depend on the processing

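Over 710 recomputed values, 538 kept their direction and side of the threshold or moved within the spread. A call was lost in 32 and gained in 36, 10 reversed and 94 moved otherwise. For values by mother, the spread was the SD between embryos on the log2 scale, 2.47 for Gpx8, and sign was not considered. That rule marked only 1 value by mother, of Prdx6, as moved, though most members changed sign, so it says little about stability. Of 411 single-gene values, 74 changed sign with neither value called. Splits by set of lanes, single embryos left out, own genotype by mother without principal components, and slopes without lane were chosen after seeing the data. The causes of the changes were not tested.

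Members called for alleles went from 1 to 2 without the BAF window. For own genotype, 1 became 0 without principal components, on unadjusted RPM, and with B6 mothers or F1 mothers alone without principal components. For the F1 crosses, 2 became 4 with DESeq2, 0 with limma voom and a litter block, 1 with somite number as a covariate, 4 in litters of 46 to 50 somites, and 1 to 3 leaving out each litter. For somite number, 3 became 1 with litter regressed out, 0 over litter means, 6 with B6 mothers, 1 with F1 mothers, 0 in lane J, 1 in lanes K to N and 5 without lane J. Slopes differing by mother went from 0 to 4 without lane in the model.

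Reversed coefficients were Prdx1 in lane J (0.074), Prdx2 in lanes D to G (0.50), Prdx6 in lanes D to G (0.45) and J (0.10), and Prdx4 with lane (0.053) or litter (0.12) regressed out, in lanes A, B, C, H and I (0.11), in lane J (0.29) and as an edgeR slope with lane (0.027). The Prdx3 slope difference between mothers was 0.32 without lane. By mother (log2, B6 over F1 mothers), Gpx3 stayed between 0.19 and 0.63 and Prdx2 between −0.78 and −0.09 over 25 alternatives, while the other members changed sign, Prdx4 ranging from −1.66 to 0.21, Prdx6 from −0.48 to 0.20 and Gpx7 from −0.37 to 0.25.

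Over all genes, somite calls went from 2200 to 1150 with lane and 194 with litter regressed out, 174 over litter means, 5180 with B6 mothers, 3931 in the second flowcell, 609 in lanes K to N, 3 in lane J and 1004 as edgeR slopes. Allele calls went from 1737 to 1086 in F1 alone and 2894 with Benjamini-Hochberg adjustment. Own-genotype calls went from 2832 to 1885 without principal components, 1688 with litter, 1183 unadjusted, 1840 and 1333 for B6 and F1 mothers, and 994, 1003 and 907 in the fits by mother without components. F1 calls went from 3788 to 341 with voom, 601 with somite number, 1549 in litters of 46 to 50 somites, and 1696 to 6223 leaving out each litter. Interactions of genotype and mother went from 25 to 3 or 4 without components, and slopes by mother from 1 to 4538 without lane.

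Somite calls were 1405 up and 795 down, 849 and 301 with lane, 1679 and 3501 with B6 mothers, and 976 and 1117 with TMM scaling. F1 calls were 1986 higher with Cast mothers and 1802 lower, and 1496 and 2116 without the low-count filter.

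No paired analysis was possible because the crosses share no litters or replicate numbers that tie embryos together.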
